A study of Mus musculus with 18 samples.

Results

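The GIMAP (GTPase of immunity-associated protein) family was followed in splenic B cells during activation, through the 8 *Gimap* genes of the deposited expression table: *Gimap1*, *Gimap3*, *Gimap4*, *Gimap5*, *Gimap6*, *Gimap7*, *Gimap8* and *Gimap9*. They were chosen by gene ID, 8 of the 16545 genes in the table, and all 8 had values in every library. RNA-seq libraries came from purified splenic B cells of C57BL/6 mice, whose age is not given for these libraries, kept in culture with LPS (lipopolysaccharide, a bacterial TLR4 ligand that drives B cell proliferation) for 0, 1 or 2 days (D0, D1, D2). By the study's methods the control mice (CON) were Zbtb24 +/+ littermates and the B-CKO mice (BKO) were Zbtb24 loxp/loxp. Both groups should carry a B cell Cre, and in BKO that Cre removes the *Zbtb24* exon with the translation start from B cells. Each of the 6 groups held 3 libraries, numbered 1 to 3, 1 mouse per number and genotype, and values are FPKM, a fragment count scaled to transcript length and library size.

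GIMAP proteins are small GTP-binding proteins of the AIG1 type that sit on intracellular membranes, and they are best known from lymphocytes, whose survival depends on several of them. Loss of GIMAP5 causes lymphopenia in rats and mice, GIMAP1 is needed to keep mature T and B cells, and GIMAP6 takes part in autophagy through GABARAP-type proteins. The 8 genes lie side by side on chromosome 6 of GRCm38 (mm10), between 48647186 and 48770851, a span of 124 kb, in this order: *Gimap8* (gene ID 243374, 48647186 to 48660875), *Gimap9* (gene ID 317758, 48676121 to 48679116), *Gimap4* (gene ID 107526, 48684578 to 48692062), *Gimap6* (gene ID 231931, 48701583 to 48708244), *Gimap7* (gene ID 231932, 48718621 to 48724636), *Gimap1* (gene ID 16205, 48739047 to 48743795), *Gimap5* (gene ID 317757, 48746197 to 48754200) and *Gimap3* (gene ID 83408, 48764464 to 48770851). *Gimap6* and *Gimap3* are on the minus strand and the other 6 on the plus strand. In GENCODE M21, the coding sequences of *Gimap3* and *Gimap5* are 90.7% identical over 895 aligned bases and their transcripts share 190 stretches of 50 bases. No other pair exceeds 68.8% identity or shares such a stretch. The levels of *Gimap3* and *Gimap5* are therefore uncertain where reads could be split between them, as are those of genes under overlapping antisense or readthrough transcripts (*Gimap1os* over *Gimap1*, *Gm28053* over *Gimap7*, *Gimap1* and *Gimap5*), since strandedness is not given in the sources used here.

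Promoters are shown for *Gimap6*, which fell most in the first day, *Gimap4*, which rose in that day, *Gimap7*, which rose in the second, and *Gimap5*, the survival-linked member. Each is the 250 bases before the gene's start in RefSeq (GRCm38.p6), read 5' to 3' on the gene's strand, at chr6:48708245-48708494 (minus strand), chr6:48684328-48684577 (plus strand), chr6:48718371-48718620 (plus strand) and chr6:48745947-48746196 (plus strand). The letters searched on both strands were GGAAGT for ETS, TGTGGT for RUNX, GTAAACA for FOXO, CACGTG for the E-box, CAGGTG for the E protein E-box, GGGCGG for the GC box and TATAAA for the TATA box, and capitals mark every match.
Gimap6: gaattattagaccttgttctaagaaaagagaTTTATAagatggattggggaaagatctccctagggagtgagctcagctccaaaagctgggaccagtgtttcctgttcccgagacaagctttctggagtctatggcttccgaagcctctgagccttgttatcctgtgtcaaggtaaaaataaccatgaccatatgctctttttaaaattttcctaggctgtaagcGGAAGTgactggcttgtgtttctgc
Gimap4: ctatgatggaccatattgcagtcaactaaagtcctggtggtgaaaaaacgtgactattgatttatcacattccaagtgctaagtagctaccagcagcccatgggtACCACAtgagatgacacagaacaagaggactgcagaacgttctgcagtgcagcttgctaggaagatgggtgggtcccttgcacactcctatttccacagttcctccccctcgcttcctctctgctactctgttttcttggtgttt
Gimap7: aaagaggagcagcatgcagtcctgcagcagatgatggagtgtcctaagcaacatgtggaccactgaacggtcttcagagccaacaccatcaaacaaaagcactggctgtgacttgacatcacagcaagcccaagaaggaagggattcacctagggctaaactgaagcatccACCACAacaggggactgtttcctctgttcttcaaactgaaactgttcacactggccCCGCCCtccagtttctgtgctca
Gimap5: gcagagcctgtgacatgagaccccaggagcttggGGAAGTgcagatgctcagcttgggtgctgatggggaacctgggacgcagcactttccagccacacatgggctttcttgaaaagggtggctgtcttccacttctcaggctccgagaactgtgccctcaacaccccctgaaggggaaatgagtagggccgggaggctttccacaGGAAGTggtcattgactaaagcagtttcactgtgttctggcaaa
The RUNX letters were found before *Gimap1*, *Gimap4* and *Gimap7*, against 14.0% of 32851 promoter windows of the same length. The ETS letters were found before *Gimap5* and *Gimap6* (19.7% of all windows) and the TATA letters before *Gimap6* (12.4%). The GC box lay before *Gimap7* and *Gimap9* (32.7%), the FOXO letters before *Gimap3* (3.17%) and the E protein E-box before *Gimap9* (17.2%), while the E-box (6.02%) was in none. GC content was 43.6% before *Gimap6* and 61.2% before *Gimap9*, against a median of 52.4% over all windows. Such matches are descriptions of the letters only.

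The libraries held 13369 to 14112 genes above 0, and relative depth, estimated from the steps of low values, ran from 0.837 to 0.864 at D0 and from 0.960 to 1.026 at D1 and D2, with CON D1 replicate 1 set to 1. *Zbtb24* ranged from 37.05 to 49.62 FPKM in CON and from 10.53 to 14.33 in BKO at D0. The B cell receptor gene *Cd79a* ranged from 642 to 2270 FPKM over all libraries, and 14 T cell markers together ranged from 11.1 to 47.7 FPKM, of which *Lck* made up 17.8 to 22.7 in CON at D0. At D0 replicate 1 was highest for 8 of 8 in CON and 8 of 8 in BKO, against 54.2% and 52.7% of the 9996 genes that averaged 1 FPKM or more, and the order 1, 2, 3 held for 8 and 7 of 8, against 37.2% and 29.1%. The D0 comparisons were therefore also made without replicate 1. Because that replicate was picked as the highest, leaving it out raises every member's change from D0. Calls gained that way follow from the choice and do not support a rise.

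**Figure D1:**
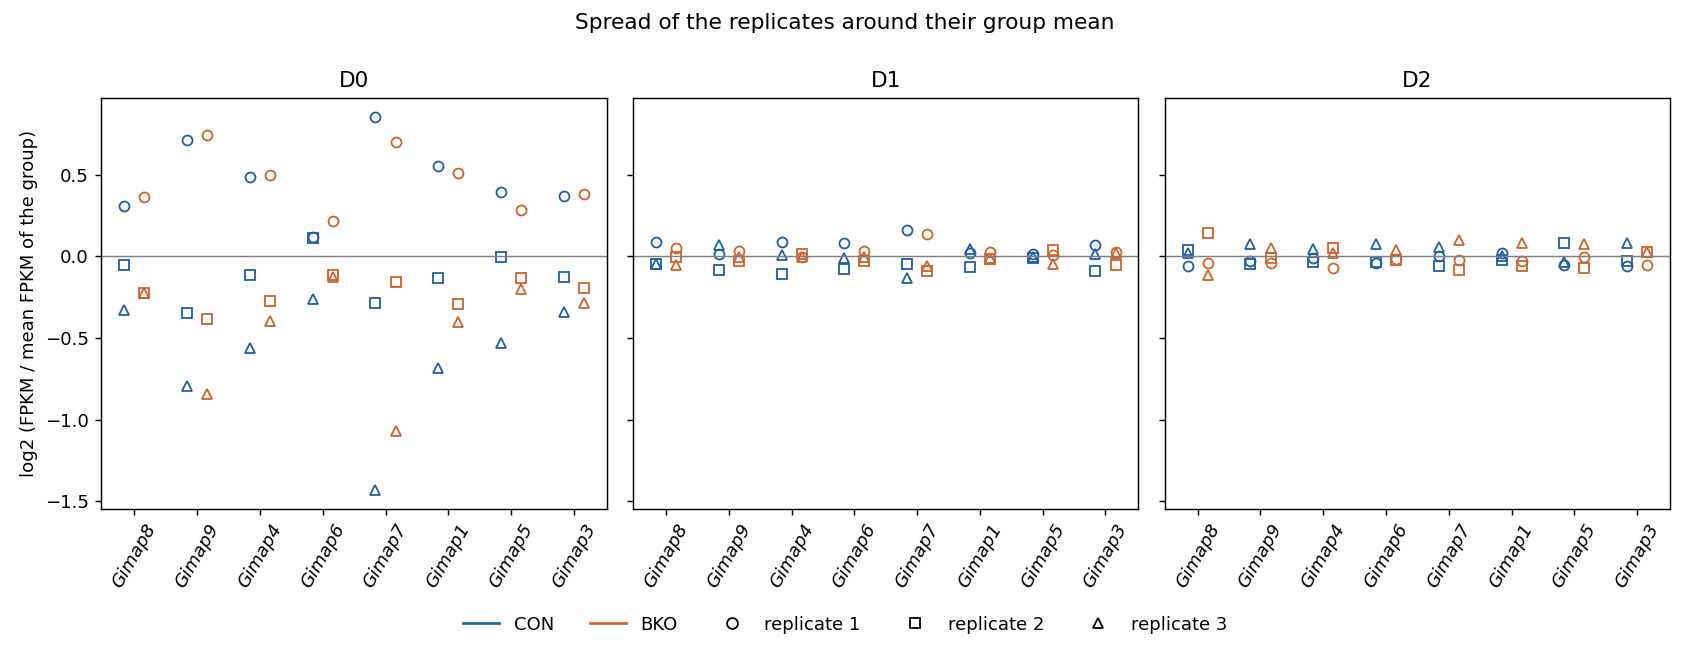
Log2 of FPKM over the group mean (vertical axis) for each *Gimap* gene (horizontal axis) at D0, D1 and D2, with the symbol giving the replicate number and the colour the genotype. At D0 replicate 1 lies above the mean for all 8 genes in both genotypes, whereas the D1 and D2 replicates lie near it.

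The D0 spread was widest for *Gimap7*, whose replicates 1, 2 and 3 measured 54.13, 24.5 and 11.09 FPKM in CON and 56.34, 31.05 and 16.51 in BKO, 4.88-fold and 3.41-fold between replicates 1 and 3. It was narrowest for *Gimap6*, where the same ratios were 1.31 and 1.27. The summed T cell markers also ran from replicate 1 down to replicate 3 at D0, from 47.7 to 32.0 FPKM in CON and from 42.1 to 32.9 in BKO. The sum of 9 B cell markers was also highest in replicate 1, with 5396, 4856 and 4164 FPKM in replicates 1, 2 and 3 of CON and 5548, 4262 and 4525 in BKO. The sum of 6 NK cell markers ran the other way, from 7.81 to 14.36 FPKM in CON and from 6.27 to 16.65 in BKO. So did that of 5 plasma cell markers, with 250.8, 399.2 and 420.1 FPKM in replicates 1, 2 and 3 of CON and 242.4, 392.6 and 419.8 in BKO. The sum of 19 genes of lymphocyte quiescence was lowest in replicate 1 of both genotypes (3352 against 4368 and 4300 FPKM in CON, 3489 against 4549 and 4336 in BKO). The part of these cells and genes in the *Gimap* spread was not tested. In these bulk samples, fewer cells of a type and less RNA per cell cannot be told apart.

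The members were then set in order of level within each group, on the FPKM scale, which is per length. In CON at D0, *Gimap6* was highest with a mean of 342 FPKM (SD 49.6, n = 3), above *Gimap3* (137), *Gimap4* (137), *Gimap1* (114) and *Gimap8* (78.8), and *Gimap5* (33.4), *Gimap7* (29.9) and *Gimap9* (28.0) were lowest. The libraries of *Gimap6* did not overlap those of the next gene, and neither did those of *Gimap8* and *Gimap5*, whereas all other neighbours in this order overlapped. At D1 the highest was *Gimap4* (259 FPKM), followed by *Gimap3* (184) and *Gimap6* (161), none of which overlapped the next, and *Gimap7* was lowest (22.8). At D2, *Gimap4* (239) and *Gimap6* (176) led, and *Gimap7*, lowest at D1, stood at 72.6 FPKM, above *Gimap8* (38.2), with *Gimap9* lowest (23.1). BKO gave the same genes at the top on each day, *Gimap6* at D0 (348) and *Gimap4* at D1 (263) and D2 (266).

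**Figure D2:**
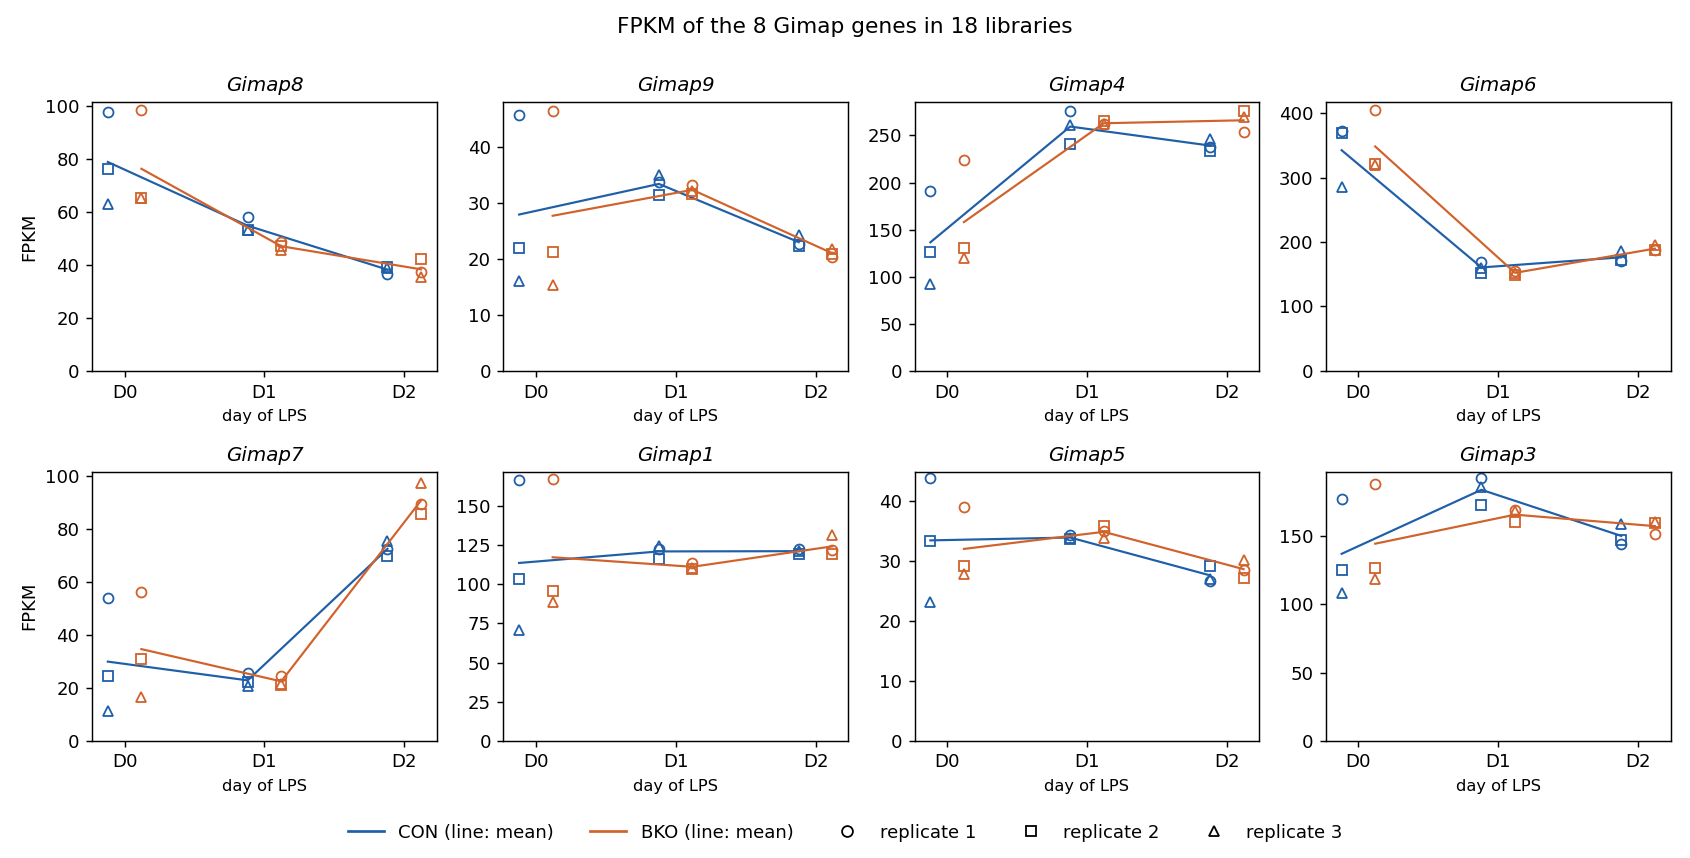
FPKM of each *Gimap* gene (vertical axes, from 0) by day of LPS, with 1 symbol per library, colour for genotype and lines through the means of 3 libraries. *Gimap6* and *Gimap8* lie lower at D1 than at D0 in every library, *Gimap4* higher, and *Gimap7* rises between D1 and D2.

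The first comparison asked how the genes changed during the first day with LPS. No library came from cells cultured without LPS, so effects of LPS and of time in culture cannot be told apart. In CON, 3 of 8 *Gimap* genes were called (limma, adjusted p under 0.05), 1 higher and 2 lower, at a background of 57.4% of 15531 genes called (26.7% higher, 30.7% lower). In BKO the same 3 genes were called, at a background of 59.8% of 15551 (27.5% higher, 32.3% lower). The members' median log2 fold change was 0.12 in CON and 0.06 in BKO, beside -0.02 and -0.02 over all genes tested. Without D0 replicate 1, 6 members were called in CON and 7 in BKO, where 61.3% and 63.5% of all genes tested were called. The comparisons share libraries of D0 or of D1.

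*Gimap6*, the autophagy-linked member, fell most. Its CON libraries read 372.38, 369.64 and 285.14 FPKM at D0 and 169.67, 152.23 and 159.72 at D1, and its BKO libraries 404.32, 321.42 and 319.0 at D0 and 155.73, 148.87 and 151.9 at D1. Every D1 library was below every D0 library in both genotypes. The means were 2.13-fold lower in CON (log2 -1.08, SE 0.12, adjusted p 0.000356) and 2.29-fold lower in BKO (log2 -1.18, SE 0.10, adjusted p 9.91e-05). Both calls held in 13 of 13 alternatives, and without replicate 1 at D0 the values were -1.01 and -1.07.

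*Gimap8*, which carries several GTP-binding domains, fell as well. It read 97.57, 76.13 and 62.82 FPKM in CON at D0 against 58.25, 53.1 and 53.05 at D1, and 98.3, 65.18 and 65.35 in BKO against 48.78, 46.95 and 45.44. The groups did not overlap in either genotype. The log2 change was -0.50 (SE 0.16, adjusted p 0.034) in CON and -0.66 (SE 0.16, adjusted p 0.0122) in BKO. The CON call was lost on leaving out D0 replicate 2 (adjusted p 0.0851) or D1 replicate 1, 2 or 3 (0.0654 to 0.0996), and held without D0 replicate 1 (-0.33, adjusted p 0.0336), as did the BKO call (-0.46, adjusted p 0.000453).

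*Gimap4*, a member linked to lymphocyte apoptosis, rose. Its D0 libraries read 191.1, 126.11 and 92.47 FPKM in CON and 223.55, 130.7 and 119.86 in BKO, and its D1 libraries 276.26, 241.07 and 261.12 and 261.97, 265.05 and 261.98. Every D1 library was above every D0 library. The means were 1.90-fold higher in CON (log2 0.98, SE 0.25, adjusted p 0.0151) and 1.66-fold higher in BKO (log2 0.79, SE 0.23, adjusted p 0.0229). The CON call was lost without D0 replicate 2 (adjusted p 0.0558) or D1 replicate 1 (0.0532), and the BKO call without any of D0 replicates 2 and 3 or D1 replicates 1 to 3 (0.0645 to 0.083). Without D0 replicate 1 both held, at 1.25 (adjusted p 0.00116) and 1.07 (adjusted p 4.3e-05).

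For the other 5 genes the D0 and D1 libraries overlapped in both genotypes. *Gimap3* had a log2 change of 0.45 (SE 0.18, adjusted p 0.0704) in CON and 0.23 (adjusted p 0.303) in BKO. The CON value of *Gimap3* passed in 6 of 13 alternatives, among them leaving out genes averaging under 1 FPKM (adjusted p 0.0434), median-ratio scaling (0.0278), the single fit of all 18 libraries (0.0267) and the mouse as a block (0.0476). *Gimap9* had values of 0.38 and 0.37, *Gimap1* of 0.18 and -0.02, *Gimap5* of 0.07 and 0.13, and *Gimap7* of -0.12 and -0.44, none called. Without D0 replicate 1, *Gimap1* (log2 0.49 in CON and 0.27 in BKO), *Gimap3* (0.65 and 0.43) and *Gimap9* (0.79 and 0.80) passed in both genotypes, all higher at D1, and *Gimap5* passed in BKO (0.28, adjusted p 0.00423) and not in CON (0.28, adjusted p 0.178). *Gimap7* did not (0.43 and -0.02). The added calls come from leaving out the library in which every member was highest, so they are no support for a rise. Without BKO D0 replicate 3, *Gimap7* was called lower at D1 in BKO (log2 -0.87, adjusted p 0.0342).

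The second comparison asked what happened between D1 and D2, where replicates were tight. In CON 5 of 8 genes were called, 1 higher and 4 lower, at a background of 44.9% of 15178 (20.1% higher, 24.8% lower), and in BKO 6 of 8, 3 higher and 3 lower, at 45.7% of 15253 (21.7% higher, 24.0% lower). The median change of the members was -0.20 and -0.03, beside -0.00 and -0.00 over all genes tested. A single fit of all 18 libraries, which shares the spread of D0 with D1 and D2, called 2 genes in each genotype, *Gimap7* and *Gimap8* in CON and *Gimap7* and *Gimap6* in BKO, and the other calls given here were lost in it. That fit called 28.1% of all 16545 genes tested in CON and 32.2% in BKO.

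*Gimap7* rose most. It read 25.52, 22.1 and 20.81 FPKM in CON at D1 and 72.62, 69.72 and 75.4 at D2, and 24.64, 21.08 and 21.56 in BKO at D1 and 89.44, 85.76 and 97.42 at D2. D2 libraries were all far above D1. The means were 3.18-fold higher in CON (log2 1.63, SE 0.07, adjusted p 2.82e-05) and 4.05-fold higher in BKO (log2 1.97, SE 0.07, adjusted p 8.46e-06), in 13 of 13 alternatives.

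*Gimap9* fell from 33.73, 31.54 and 35.14 FPKM to 22.63, 22.29 and 24.24 in CON and from 33.2, 31.74 and 32.29 to 20.44, 20.91 and 21.81 in BKO. The days did not overlap. The log2 changes were -0.52 (SE 0.05, adjusted p 0.00033) and -0.60 (SE 0.04, adjusted p 4.63e-05), and 0.305 and 0.214 were the adjusted p-values in the single fit. *Gimap8* fell further, from a mean of 54.8 to 38.2 FPKM in CON (log2 -0.51, SE 0.05, adjusted p 0.000253) and from 47.1 to 38.3 in BKO (log2 -0.29, SE 0.07, adjusted p 0.0107, and 0.177 in the single fit). *Gimap5*, the survival-linked member, fell by 0.29 on the log2 scale in CON (SE 0.04, adjusted p 0.00152) and by 0.28 in BKO (SE 0.05, adjusted p 0.00294), from means of 33.9 and 34.8 to 27.5 and 28.6 FPKM. Its adjusted p-values in the single fit were 0.232 and 0.245.

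*Gimap3* was called in CON (mean 184 to 150 FPKM, log2 -0.29, adjusted p 0.00489, and 0.226 in the single fit) and not in BKO (166 to 157, log2 -0.07, adjusted p 0.167). *Gimap6* was called in BKO (152 to 190 FPKM, log2 0.32, SE 0.03, adjusted p 0.000377) and not in CON (161 to 176, log2 0.13, adjusted p 0.0763), although the CON libraries of D1 and D2 did not overlap. The CON value passed in 4 of 13 alternatives, without genes averaging under 1 FPKM (0.042), with median-ratio scaling (0.0401), with that filter and the mouse as a block (0.0367) and without D1 replicate 1 (0.0446), and the genotype difference in this change was not called (adjusted p 0.61). *Gimap1*, needed to keep mature B cells, was called in BKO (111 to 124 FPKM, log2 0.16, adjusted p 0.0218) and had a change of 0.00 in CON. The BKO call was lost without BKO D1 replicate 2 (adjusted p 0.0786) or 3 (0.0719), after rescaling to TPM (0.0533) and in the single fit (0.735). *Gimap4* stayed high, with changes of -0.11 in CON and 0.02 in BKO, neither called. Without CON D1 replicate 2 the CON change of *Gimap4* was called lower (log2 -0.17, adjusted p 0.0347, limma).

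Between D0 and D2, 4 genes were called in CON, 2 in each direction, at a background of 56.8% of 15584 (26.5% higher, 30.3% lower), and the same 4 in BKO, at 57.6% of 15695 (27.0% higher, 30.7% lower). *Gimap4* and *Gimap7* were higher and *Gimap6* and *Gimap8* lower. *Gimap8* was 2.06-fold lower in CON (adjusted p 0.00158) and 1.99-fold lower in BKO (0.00304). On the log2 scale *Gimap6* changed by -0.94 (0.000575) and -0.86 (0.000499), *Gimap4* by 0.87 (0.0215) and 0.80 (0.0213), and *Gimap7* by 1.52 (0.04) and 1.53 (0.0146). The other 4 genes were not called in either genotype, whereas without D0 replicate 1 *Gimap1* (0.50 in CON, 0.42 in BKO) and *Gimap3* (0.36 and 0.36) passed as well, where 59.7% and 60.1% of all genes tested were called. The 4 called genes held without that replicate, at 2.07 and 1.95 for *Gimap7*, 1.14 and 1.08 for *Gimap4*, -0.88 and -0.75 for *Gimap6* and -0.84 and -0.76 for *Gimap8*. Leaving out that replicate, picked as the highest, raises all of these values. The *Gimap6* and *Gimap8* calls held in 13 of 13 alternatives. In CON, *Gimap4* and *Gimap7* were lost without D0 replicate 2 or any D2 library, and only *Gimap6* and *Gimap8* were then called. In BKO *Gimap7* was lost without D2 replicate 3 (adjusted p 0.0524), and *Gimap4* without any of D0 replicates 2 and 3 or D2 replicates 1 to 3 (0.0527 to 0.0769). After rescaling to TPM, *Gimap7* in CON (0.0535) and *Gimap4* in BKO (0.0547) were also lost, and *Gimap5* in BKO passed (log2 -0.36, adjusted p 0.0433). *Gimap5* also passed in CON without D0 replicate 3 (-0.46, adjusted p 0.0252).

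**Figure D3:**
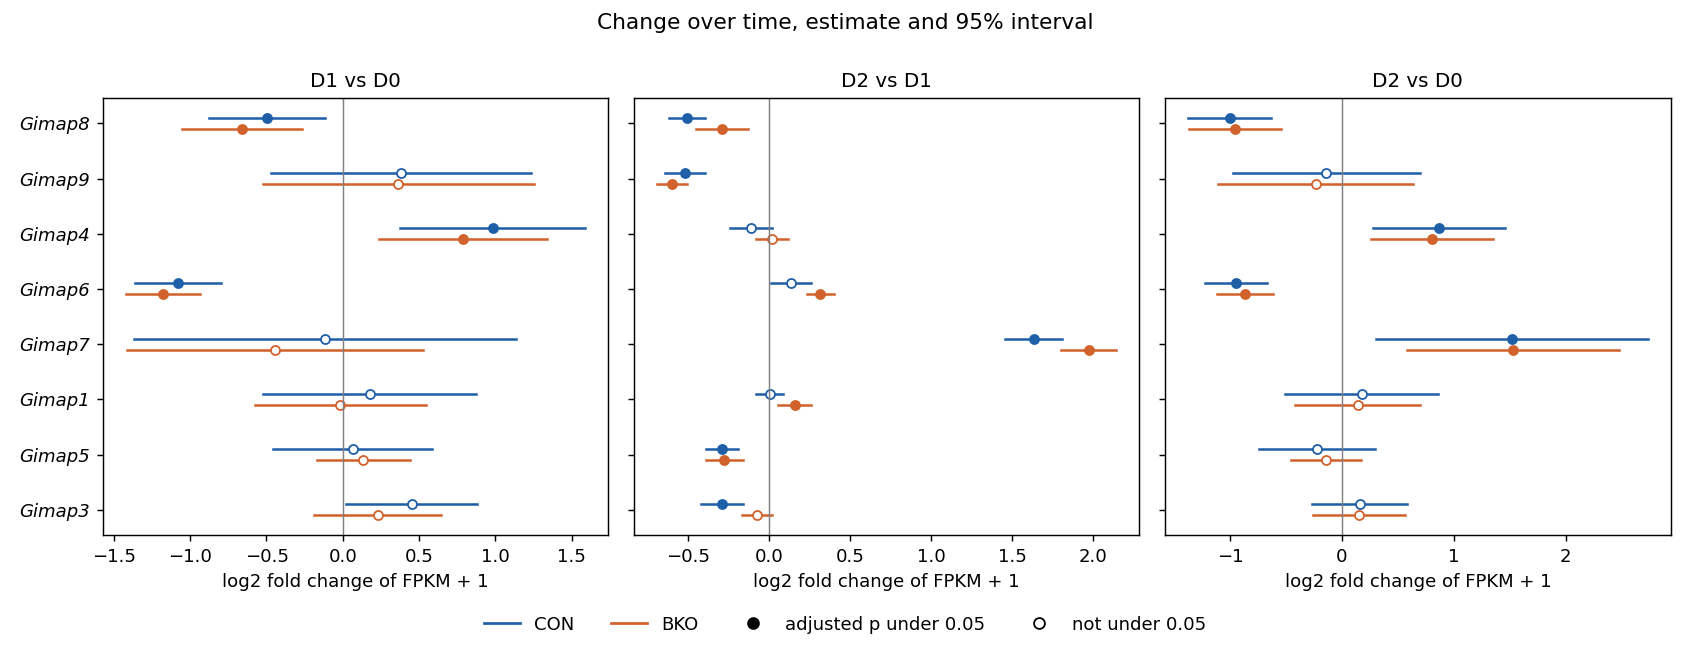
Log2 fold change of FPKM + 1 (horizontal axes) with 95% intervals for each *Gimap* gene over the pairs of days in CON and BKO, filled where the limma adjusted p is under 0.05. *Gimap7* rises by 1.63 and 1.97 from D1 to D2, and intervals of D0 comparisons are the wider ones.

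The sum of the 8 genes and the share of each were also followed, with no test. The summed FPKM averaged 899.9 (SD 239.9, range 670.1 to 1148.9) in CON at D0, 870.2 at D1 and 848.5 at D2, and 938.9, 829.0 and 916.6 in BKO. The share of *Gimap6* in the sum was 39.0% at D0 and 18.4% at D1 in CON, and 37.8% and 18.4% in BKO. The share of *Gimap4* was 14.9% and 29.8% in CON and 16.6% and 31.7% in BKO. *Gimap7* made up 2.62% of the sum at D1 and 8.55% at D2 in CON, and 2.70% and 9.91% in BKO.

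**Figure D4:**
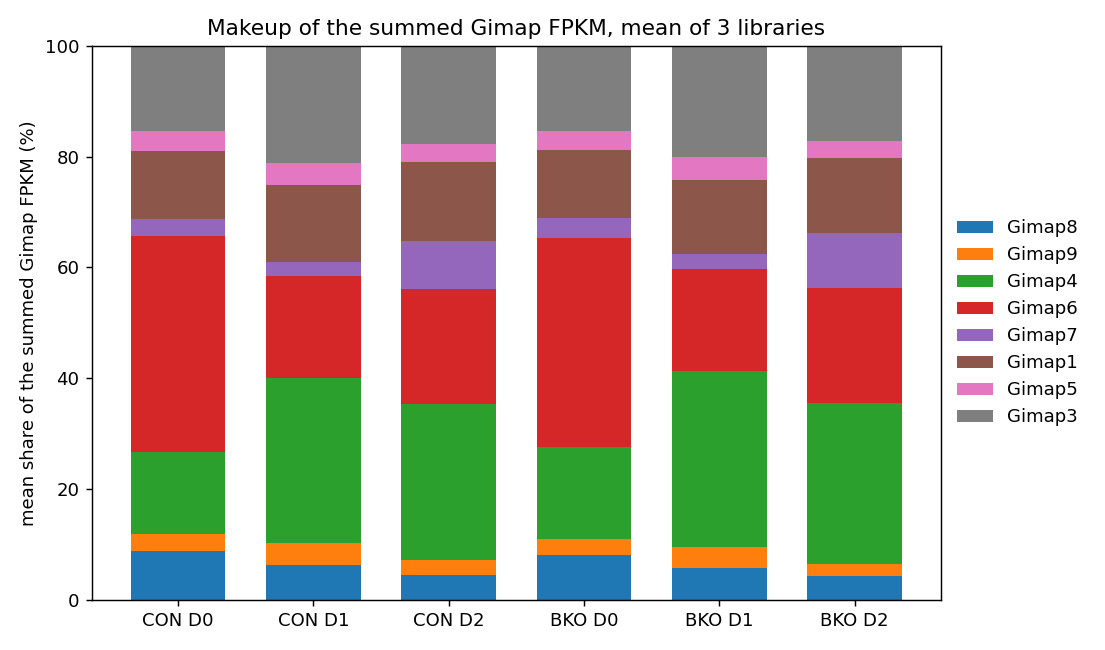
Mean share of each gene in the summed *Gimap* FPKM (vertical axis, percent) in the 6 groups of 3 libraries. *Gimap6* makes up 39.0% in CON at D0 and 18.4% at D1.

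The members did not all move together. Over the 18 libraries, 20 of 28 pairs had a positive correlation of log2(FPKM + 1) and 8 a negative one, median 0.37, from -0.72 (*Gimap4* and *Gimap6*) to 0.89 (*Gimap5* and *Gimap9*). These libraries share day, genotype and the D0 spread. The correlation of a member with the mean z-score of all 8 ran from 0.14 (*Gimap6*) to 0.94 (*Gimap1*). The genes most like that score, of 9988, were *Pdcd7* (0.965), *Zfp82*, *Cap1*, *Zfp738* and *Tmem229b* (0.948).

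The next question was whether *Zbtb24* deficiency altered any member. No *Gimap* gene was called at D0, D1 or D2 (limma, lowest adjusted p 0.11 at D1 and 0.179 at D2), at backgrounds of 0.0%, 0.0993% and 0.046% of 15641, 15104 and 15210 genes. At an unadjusted p under 0.05 there were 0, 3 and 3 members, against 2.0%, 16.3% and 7.71% of all genes. At D0 the intervals were wide, for *Gimap7* from -1.24 to 1.86 on the log2 scale and for *Gimap6* from -0.33 to 0.39. Libraries of the same number pair the genotypes at D0, and within the 3 pairs BKO was higher in all 3 for *Gimap3*, *Gimap4* and *Gimap7* and in 1 or 2 for the other 5 genes. With the number as a block, *Gimap7* differed by 0.31 (SE 0.10, adjusted p 0.848) and *Gimap4* by 0.22 (SE 0.07, adjusted p 0.852), and no member was called. At D1 the log2 differences ran from -0.21 to 0.04 and at D2 from -0.12 to 0.32. The widest D1 interval, of *Gimap7*, ran from -0.23 to 0.18. No member's groups were separate at D0, where 3.87% of all genes were (1.92% higher, 1.94% lower in BKO). Without replicate 1 of both genotypes at D0 no member was called either.

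At D1 3 genes had non-overlapping groups, all lower in BKO, against 20.1% of all genes in either direction (8.43% higher, 11.7% lower). *Gimap8* read 58.25, 53.1 and 53.05 FPKM in CON and 48.78, 46.95 and 45.44 in BKO, a log2 difference of -0.21 (SE 0.05, p 0.00233, adjusted p 0.11, limma). *Gimap8* passed when genes averaging under 1 FPKM were left out (adjusted p 0.0341), a filter under which 388 of 9711 genes were called at D1. *Gimap3* differed by -0.15 (adjusted p 0.182) and *Gimap1* by -0.12 (adjusted p 0.152).

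At D2 4 genes did not overlap, 3 higher and 1 lower in BKO, against 11.1% of all genes (4.89% higher, 6.24% lower). *Gimap7* read 72.62, 69.72 and 75.4 FPKM in CON and 89.44, 85.76 and 97.42 in BKO, a log2 difference of 0.32 (SE 0.06, p 0.000802, adjusted p 0.179, limma). *Gimap4* and *Gimap6* were 0.15 and 0.11 higher, and *Gimap9* was 0.12 lower on the log2 scale.

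**Figure D5:**
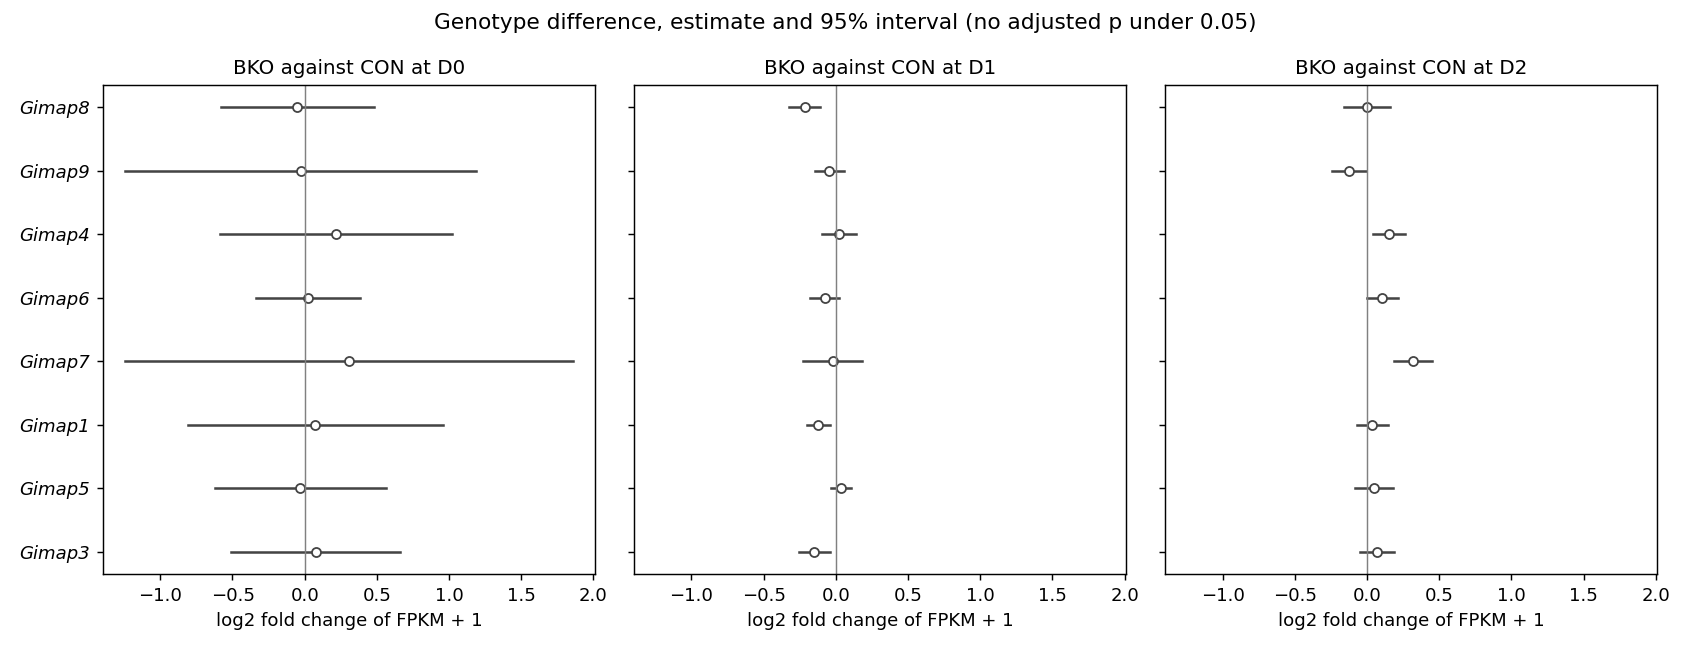
Log2 fold change of FPKM + 1 of BKO against CON (horizontal axes) with 95% intervals for each *Gimap* gene at D0, D1 and D2, none with an adjusted p under 0.05. The D0 intervals are wide and those of D1 and D2 narrow.

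Whether the changes over time differed between genotypes was tested as an interaction. No member was called in the D1 against D0, D2 against D1 or D2 against D0 change (backgrounds 0.0%, 0.0% and 0.0%). In the D2 against D1 change 5 of 8 members had an unadjusted p under 0.05, against 7.31% of all genes, and all 5 were positive, from 0.16 for *Gimap1* to 0.34 for *Gimap7* on the log2 scale (lowest adjusted p 0.598). In the other changes 0 members did, against 2.89% and 2.6% of all genes. Without D0 replicate 1 of both genotypes no member was called in them either, with values from -0.45 to 0.01 for D1 against D0 and from -0.11 to 0.13 for D2 against D0. These interactions rest on the same libraries as the genotype differences at D1 and D2.

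Other genes of the pathway were taken as lists. Of 22 GIMAP partner and autophagy genes, 6 were called higher and 10 lower at D1 against D0 in CON (median log2 -0.20), and 6 and 12 in BKO, where 57.4% and 59.8% of all genes were called. Those that changed most were *Map1lc3a*, an LC3 gene of autophagosomes (22.8 to 1.42 FPKM, log2 -3.28, adjusted p 1.02e-05), *Bcl2l1*, which encodes the survival factor BCL-xL (2.58 to 22.7, 2.73, 1.03e-05), *Bcl2l11*, which encodes BIM (31.6 to 9.12, -1.56, 0.00876), and *Map1lc3b* (83.3 to 29.9, -1.43, 0.000266). Of 19 lymphocyte quiescence genes 18 were called lower (30.7% of all genes in CON) and 1 higher, *Slfn2* (45.1 to 186 FPKM), median log2 -1.90, beside 0.12 for the *Gimap* genes. *Tsc22d3* (log2 -6.06), *S1pr1* (-4.16), *Btg1* (-3.80) and *Klf2* (-3.51) changed most. In BKO 1 was called higher and 18 lower as well. From D1 to D2, 11 quiescence genes were called higher and 3 lower in CON, and 12 and 3 in BKO, beside 44.9% and 45.7% of all genes called. Between genotypes, 1 gene of the 2 lists was called, at D1: the survival gene *Mcl1* had a mean of 192 FPKM in CON and 161 in BKO (log2 -0.25, adjusted p 0.0421, limma).

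Of the 14 neighbours of the cluster with a start within 500 kb, 10 had a mean of at least 1 FPKM. From D0 to D1, 3 rose and 4 fell in CON and 3 rose and 3 fell in BKO (57.4% and 59.8% of all genes called), with *Repin1* and *Malsu1* among those higher and *Krba1*, *Zfp467* and *Lrrc61* among those lower in both. From D1 to D2, 2 rose and 1 fell in CON and 4 rose and 2 fell in BKO (44.9% and 45.7%). The 13 neighbours tested moved by -0.37 to 0.34 on the log2 scale from D1 to D2 in CON, beside 1.63 for *Gimap7*. T cells also express *Gimap* genes. All 14 T cell markers in the table were called lower at D1 in both genotypes, and their sum went from 32.0 to 47.7 FPKM at D0 to 15.0 to 17.99 at D1 and 15.4 to 15.8 at D2 in CON. The NK cell sum went from 7.81 to 14.36 FPKM at D0 to 0.52 to 0.68 at D1 in CON and from 6.27 to 16.65 to 0.51 to 0.78 in BKO. The 9 B cell markers summed to 2347 to 2512 FPKM at D1 in CON and 2187 to 2254 in BKO, below every D0 library. The part of B, T and NK cells in the fall of *Gimap6* and *Gimap8* was not tested. The 6 endothelial markers in the table summed to 78.7 to 79.6 FPKM in CON at D0, 35.9 to 36.9 at D1 and 35.4 to 35.7 at D2. *Pecam1*, which lymphocytes also express, made up 77.85 to 79.1 of the D0 sum, while *Cdh5* was at most 0.55 and *Kdr* at most 0.03 FPKM in any library. The part of endothelial cells was not tested.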

How the data were processed

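FPKM values of 18 libraries (6 groups of 3) were taken from the table the authors deposited, with 2 decimals for 16545 genes. Per the labels and methods, reads of 150 bases were mapped to mm10 with bowtie2, and abundance was estimated with Cufflinks and RSEM by the authors. BWA and DESeq2 are also named in the submitters' processing notes. Versions and annotation are not given in the sources used here. The labels name an MGI2000 instrument, the methods a HiSeq or Novaseq. Depth in fragments is unknown. 16512 gene IDs matched RefSeq symbols. Log2(FPKM + 1) was tested with limma 3.58.1 (R 4.3.3, lmFit, eBayes with a trend) on the groups compared, dropping genes at 0 in all, with Benjamini-Hochberg adjustment and a threshold of 0.05. Fits were tested on values simulated with independent noise for each gene and library. Such values lack the deviations that same-numbered D0 libraries share, so that test does not cover them. Alternatives were a pseudocount of 0.1, a mean of at least 1 FPKM, TPM, median-ratio scaling, the replicate block, a fit of all 18 libraries and leaving out each library. Leaving out replicate 1 of both genotypes at D0 was added after seeing the data. Singling out D0 replicate 1 within a genotype was likewise a choice made on the members' values. Replicate numbers were taken to name the mouse within a genotype, since the methods give 1 mouse per replicate (correlation of deviations across days -0.0872 to 0.187). Between genotypes, deviations of same-numbered libraries correlated at 0.854, 0.468 and 0.789 at D0, so that they pair there. At D1 they correlated at 0.091 to 0.200, and libraries of unlike number at -0.119 to 0.008. At D2 the values were -0.037 to 0.230 and -0.341 to 0.171. Whether the numbers pair the genotypes at D1 and D2 is therefore uncertain. The members and gene lists, all named here by a rule (all 8 members, the 5 genes most like them, neighbours within 500 kb, and up to 4 genes per list), were chosen with earlier results of these data known. Protein comparisons were not made. Sequences were read with Python 3.11.15 and Biopython 1.88, figures drawn with matplotlib 3.10.9. The levels of 1 gene are not reported here.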

Additional observations from a re-analysis of the deposited data

How the results depend on the processing

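Of the values for single *Gimap* genes under the alternatives, 944 in all for the changes over time and BKO against CON on each day, 830 kept direction and side of the threshold, 28 passed it only under the alternative, 37 lost it and 50 changed sign, 1 of these also among the 28. The genotype differences in a change over time gave 472 further values, of which limma called 0, with 86 at an unadjusted p under 0.05, all for D2 against D1, and 45 changed sign, 16 for D1 against D0, 25 for D2 against D0 and 4 for D2 against D1. For D1 against D0 they ran from -0.88 to 0.22 for *Gimap7*, from -0.51 to 0.10 for *Gimap1* and from -0.43 to 0.42 for *Gimap9*. The single fit of all 18 libraries called 2 members from D1 to D2 in CON and 2 in BKO, where the D0 spread enters the shared error. Leaving out genes averaging under 1 FPKM, so that fewer genes were tested, called 1 member in BKO against CON at D1, where 388 of 9711 genes were called. That filter with the replicate block called 2 at D1 (*Gimap8*, adjusted p 0.0159, and *Gimap3*, 0.0339) and 1 at D2 (*Gimap7*, 0.00864). In those fits 704 of 9711 and 116 of 9857 genes were called. Whether the numbers pair the genotypes on these days is uncertain. With the replicate block alone the pairing by mouse changed 1 call, *Gimap3* in CON from D0 to D1 (log2 0.45, adjusted p 0.0476, limma), and no other. That value also passed with no block under the filter (0.0434), median-ratio scaling (0.0278) and the single fit (0.0267). Counts of genes called at D1 between genotypes were 15 as reported, 388 with the filter, 704 with filter and block, 46 with a pseudocount of 0.1, 5 with the block and 8 in the single fit. At D2 they were 7 as reported, 29 with the filter, 116 with filter and block, 3 with the block and 11 in the single fit. At D0 they were 0 as reported, 2 with the filter, 22 with filter and block and 25 in the single fit.

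Rescaling to TPM moved the median log2 change of genes averaging 1 FPKM or more from 0.03 to -0.12 for D1 against D0 in CON and from 0.00 to -0.19 for D2 against D0, and in BKO from 0.02 to -0.13 and from 0.00 to -0.21. Signs reversed under TPM, all in values not called, for *Gimap1* at D2 against D0 (-0.078 in BKO, -0.029 in CON) and D2 against D1 in CON (-0.040), *Gimap3* at D2 against D0 (-0.066 in BKO, -0.047 in CON), *Gimap4* at D2 against D1 in BKO (-0.038), *Gimap5* at D1 against D0 (-0.027 in BKO, -0.097 in CON) and *Gimap8* in BKO against CON at D2 (-0.023). Median-ratio scaling gave 0.019 for *Gimap1* at D1 against D0 in BKO. Without replicate 1 of both genotypes at D0, an alternative added after seeing the data, BKO against CON was 0.038 for *Gimap5* and -0.020 for *Gimap6*.

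On leaving out 1 library, the members called at D1 against D0 numbered 1 to 6 in CON and 2 to 7 in BKO, and at D2 against D0 2 to 6 in CON and 2 to 6 in BKO. The share of all genes called in these fits ran from 48.9% to 61.3% and from 52.7% to 63.5% at D1 against D0, and from 49.1% to 59.7% and from 49.8% to 60.1% at D2 against D0. The highest counts came without D0 replicate 1 of that genotype. Only 1 was left at D1 against D0 without CON D1 replicate 1 or CON D0 replicate 2, and 2 at D2 against D0 without CON D0 replicate 2, any CON D2 library or BKO D2 replicate 3. Sign changes gave these log2 ranges. For BKO against CON at D0 they were -0.22 to 0.39 for *Gimap1*, -0.13 to 0.28 for *Gimap3*, -0.062 to 0.49 for *Gimap4*, -0.27 to 0.18 for *Gimap5*, -0.10 to 0.092 for *Gimap6*, -0.24 to 0.86 for *Gimap7*, -0.25 to 0.11 for *Gimap8* and -0.47 to 0.38 for *Gimap9*. At D1 they were -0.030 to 0.068 for *Gimap4* and -0.088 to 0.059 for *Gimap7*, and at D2 -0.0064 to 0.063 for *Gimap1* and -0.071 to 0.053 for *Gimap8*. For D1 against D0 they were -0.19 to 0.27 (BKO) and -0.12 to 0.49 (CON) for *Gimap1*, -0.17 to 0.28 for *Gimap5* in CON and -0.66 to 0.43 for *Gimap7* in CON. For D2 against D0 they were -0.029 to 0.42 (BKO) and -0.12 to 0.50 (CON) for *Gimap1*, -0.23 to 0.0035 for *Gimap5* in BKO, and -0.56 to 0.20 (BKO) and -0.45 to 0.27 (CON) for *Gimap9*. For D2 against D1 they were -0.028 to 0.024 for *Gimap1* in CON and -0.0097 to 0.051 for *Gimap4* in BKO. The cause of these changes was not tested. FPKM gives no fragment count, so the counting error of single values is unknown.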
